A study of Mus musculus with 12 samples.

Results

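The canonical Wnt pathway was followed here through 10 genes in maps of histone H3 acetylated at lysine 14 (H3K14ac) from mouse neural stem and progenitor cells. The genes are given by name, with no threshold on their signal: the effector Ctnnb1, the DNA-binding factors Tcf7, Tcf7l1, Tcf7l2 and Lef1, the scaffold and feedback genes Axin1, Axin2 and Apc, and the co-receptors Lrp5 and Lrp6. All 10 were among the 27095 genes counted. The mapping method was ChIP-seq, chromatin immunoprecipitation with sequencing, in which chromatin fragments bound by an antibody to the mark are sequenced and counted. The cells came from the cortex and ganglionic eminences of E14.5 mouse embryos. They were kept as neurospheres, which are floating clusters of dividing cells (proliferating), or dissociated and kept on laminin in a cortical neuron medium (differentiating). Each stage had 3 libraries of wild-type (WT) cells, 1 input library (WT chromatin without immunoprecipitation), 1 IgG library (a non-specific antibody, no genotype given) and 1 H3K14ac library from Hbo1 null cells. HBO1, encoded by Kat7, is a histone acetyltransferase that makes H3K14ac, and the study included the null cells as a negative control. The labels list the H3K14ac antibody for every library, input and IgG included, and do not say what induced the deletion or how long the cells differentiated. The study names 4 foetuses of wild type without tying them to the 3 replicate numbers, so p-values measure only how far libraries differ, and that spread may be technical.

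Canonical Wnt signalling works through beta-catenin, the product of Ctnnb1. Without a Wnt ligand, a destruction complex built on the scaffolds AXIN1 or AXIN2 and APC holds beta-catenin for phosphorylation and degradation. When a Wnt protein binds a Frizzled receptor together with LRP5 or LRP6, the complex is held back, beta-catenin accumulates, and it joins TCF/LEF factors on DNA to switch on targets such as Axin2, which feeds back on the pathway. In the developing forebrain the pathway is known for keeping progenitors dividing and for patterning the dorsal telencephalon. H3K14ac is found at the starts of active genes, among other places.

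A pair of quantities was counted for every gene: the reads in a window of 1 kb beginning where transcription starts (the TSS window, for transcription start site) and the reads over the gene body, which holds that window. Levels are given as counts per 1000000 gene body counts of the library (CPM). Gene body totals were 3992697 to 7611239 in the proliferating and 12549913 to 17074249 in the differentiating WT libraries, 11871306 and 12689734 in the inputs, 2526252 and 2771713 in IgG, and 64071 and 320601 in the null libraries. Every differentiating WT library was thus deeper than every proliferating one. TSS windows held 4.56% to 4.90% of gene body counts in proliferating WT, 3.24% to 3.68% in differentiating WT and 2.83% to 3.36% in the controls. Kat7 gene bodies held 4 and 11 counts in the null libraries (62.4 and 34.3 CPM, against 26.9 to 37.9 CPM in WT); the deleted part is not named in the labels, so this does not check them. Windows of 10 neural stem and progenitor markers, summed, stood 3.56-fold over input in proliferating and 1.71-fold in differentiating cells, while 8 neuron markers stood at 1.37-fold and 1.09-fold. The sums for microglia, endothelial and blood markers were 0.710-fold to 1.04-fold of input, those for astrocyte and oligodendrocyte lineage markers 1.37-fold to 1.54-fold, and that for mesenchymal markers 1.59-fold and 0.957-fold. No marker window was at 0 in all WT libraries, and the part of other cell types in the Wnt gene values was not tested.

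The starts of these genes differ in sequence. The promoters used here were taken from RefSeq (GRCm38.p6, the mm10 build). This set holds 12 promoters for 6 of the 10 genes and need not hold every start that RefSeq lists. Each runs from 250 bases before to 50 bases after a start. At most the last 50 of these bases can lie in a TSS window that begins at the same start. A promoter from each of 4 genes is shown, from a pair with windows above input and a pair without, with CG pairs (CpG sites) in capitals, 5′ to 3′ along the gene. Ctnnb1 (chr9:120933150-120933449, plus strand) and Axin2 (chr11:108920099-108920398, plus strand) had windows above input, whereas Tcf7 (chr11:52282965-52283264, minus strand) and Lef1 (chr3:131110047-131110346, plus strand) did not.
Ctnnb1: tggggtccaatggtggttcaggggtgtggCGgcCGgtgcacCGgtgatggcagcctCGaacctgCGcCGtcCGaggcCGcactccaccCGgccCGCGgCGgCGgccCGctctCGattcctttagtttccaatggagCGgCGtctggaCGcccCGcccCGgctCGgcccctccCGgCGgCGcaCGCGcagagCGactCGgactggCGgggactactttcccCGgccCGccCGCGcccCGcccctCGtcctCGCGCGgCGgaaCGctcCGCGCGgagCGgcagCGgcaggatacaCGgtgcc
Axin2: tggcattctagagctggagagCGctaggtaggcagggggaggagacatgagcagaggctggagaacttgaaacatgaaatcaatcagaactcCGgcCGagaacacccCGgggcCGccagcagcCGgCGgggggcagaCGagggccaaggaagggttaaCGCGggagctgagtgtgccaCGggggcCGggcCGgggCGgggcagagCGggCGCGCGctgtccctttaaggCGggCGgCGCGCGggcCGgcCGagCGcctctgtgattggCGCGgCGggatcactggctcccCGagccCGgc
Tcf7: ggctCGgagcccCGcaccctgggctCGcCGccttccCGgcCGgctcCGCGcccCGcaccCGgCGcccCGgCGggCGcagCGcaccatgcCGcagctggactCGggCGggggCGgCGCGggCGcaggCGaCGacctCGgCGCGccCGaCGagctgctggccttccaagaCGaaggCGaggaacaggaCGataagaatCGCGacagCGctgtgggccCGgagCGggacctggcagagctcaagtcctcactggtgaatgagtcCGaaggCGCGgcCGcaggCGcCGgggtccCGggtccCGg
Lef1: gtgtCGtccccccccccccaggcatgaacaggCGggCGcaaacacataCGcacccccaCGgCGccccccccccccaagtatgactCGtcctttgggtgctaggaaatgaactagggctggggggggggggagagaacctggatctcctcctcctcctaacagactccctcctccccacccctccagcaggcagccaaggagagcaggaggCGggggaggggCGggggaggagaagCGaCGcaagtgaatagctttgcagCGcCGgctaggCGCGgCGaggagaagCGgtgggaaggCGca
These promoters hold 46, 31, 45 and 18 CpG sites, against a median of 7 over 32851 promoters, 94.6% of which hold at least 1. The Tcf7 and Axin2 stretches shown lie wholly inside their RefSeq genes (chr11:52246527-52283383 and chr11:108917828-108950783), at the starts 52283014 and 108920349. They are therefore not the bases just before the outermost start of the gene. The other listed promoter of Tcf7, at the start 52282595, holds 17 sites, so its count depends on the start taken. Other listed promoters hold 21, 8 and 5 sites for Lef1 and 51 for Ctnnb1. The TCF/LEF motif (the bases CTTTG followed by a pair of letters that are each A or T, on either strand) occurs in 16.9% of all promoters and in 2 of these 12. Both are at internal starts, TACAAAG at 147 bases before the Lef1 start at chr3:131156294 and CTTTGTT at 14 bases before the Tcf7l2 start at chr19:55895321. Axin1, Apc, Lrp5 and Lrp6 have RefSeq coordinates but no promoter among the 12, so they are named only.

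In WT cells, 8 of the 10 TSS windows lay above the input of their stage in all 6 WT libraries, and 2, those of Tcf7 and Lef1, did not. Of all 21557 windows tested, 21.6% lay above input in this way. A total of 6 windows passed the test of WT against input (edgeR's quasi-likelihood test over all windows, Benjamini-Hochberg adjusted p below 0.05): Apc, Lrp6, Axin2, Ctnnb1, Lrp5 and Tcf7l1. Over all windows, 11.6% were higher by the same test. DESeq2 called 5 of the 6 and gave no adjusted p for Ctnnb1. The median log2 ratio was 1.19 for the 10 genes and 0.25 for all windows. With TMM scaling, which sets most windows to no change and moves the median of all windows to −0.02, 3 of the 10 passed (Apc, Lrp6 and Axin2), against 6.41% of all windows. The calls over all windows then split into 1382 higher and 659 lower, against 2507 and 190 with gene body totals. Each stage had 1 input, so leaving it out of the fit compares WT with input in the other stage alone. Without the proliferating input the log2 ratios of the 6 called windows were lower. They were 1.89 for Apc, 1.36 for Axin2, 1.20 for Lrp6, 1.06 for Tcf7l1, 0.74 for Lrp5 and 0.71 for Ctnnb1. Whether the calls hold in a single stage cannot be judged with 1 input.

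**Figure D1:**
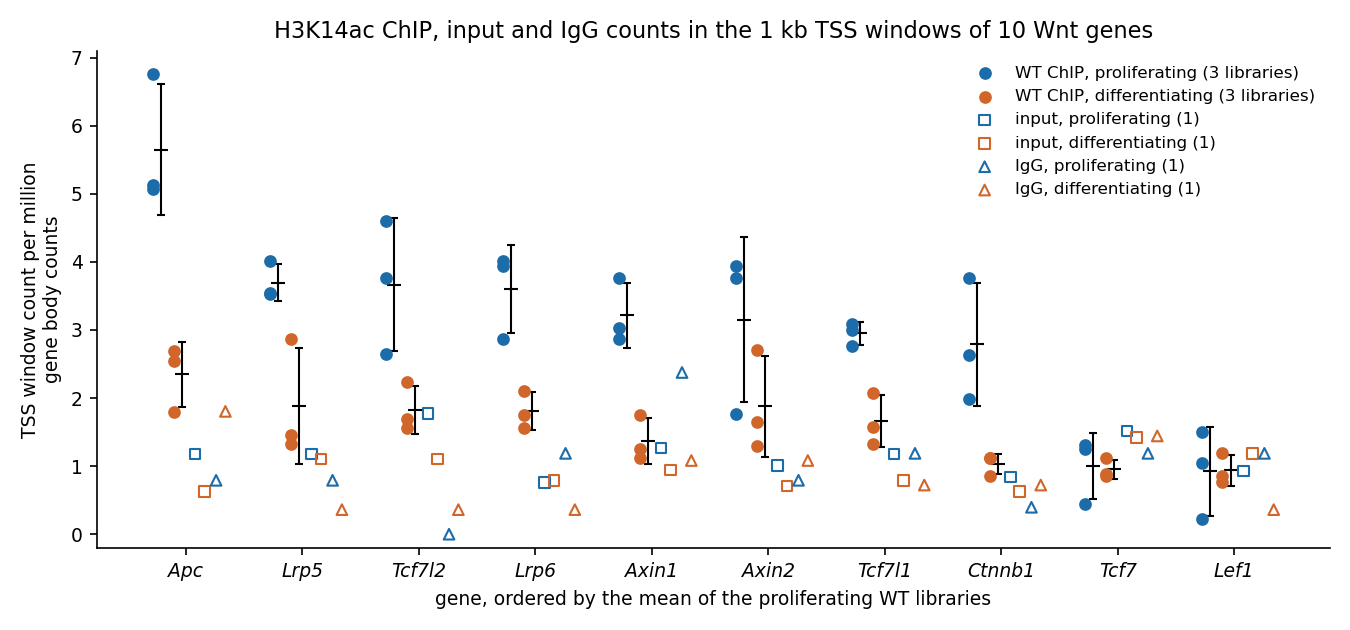
TSS window levels (CPM) of the 10 genes, 1 point per library, with the mean and SD of the 3 WT libraries of each stage in black. Apc reached 5.06 to 6.76 in proliferating WT and the Tcf7 and Lef1 windows stayed at or below 1.50, beside inputs of 0.630 to 1.77.

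The effector came first in the pathway's order. Ctnnb1, which spans chr9:120933400-120960507, encodes beta-catenin, both the transcriptional arm of the pathway and a partner of cadherins at cell contacts. Its window held 1.98, 3.76 and 2.63 CPM in the 3 proliferating and 1.12, 0.861 and 1.11 CPM in the 3 differentiating WT libraries. The inputs held 0.842 and 0.630 CPM, so every WT library lay above both. Over its own input the log2 ratio was 1.68 ± 0.46 (SD, n = 3) in proliferating and 0.70 ± 0.22 (SD, n = 3) in differentiating cells. Over both stages the fitted log2 ratio was 1.27 (SE 0.38, adjusted p = 0.0140). These levels rest on few reads, 9 to 20 per WT library.

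The 4 TCF/LEF factors, which carry beta-catenin to DNA and repress the same targets in its absence, fell into pairs. Tcf7l1, the member best known as a repressor in stem cells (chr6:72626371-72789045), held 3.08, 3.01 and 2.76 CPM in proliferating and 2.07, 1.33 and 1.58 CPM in differentiating WT, against inputs of 1.18 and 0.788. All 6 lay above both inputs, and the fitted log2 ratio was 1.19 (SE 0.38, adjusted p = 0.0238). Leaving out the first differentiating WT library raised its adjusted p to 0.0548. Tcf7l2 (chr19:55741797-55933659), which encodes TCF4 and can activate or repress, held 2.64, 3.76 and 4.60 CPM in proliferating WT and 2.23, 1.56 and 1.70 CPM in differentiating WT. Its proliferating input, at 1.77 CPM, was the highest of the 10 genes, and the differentiating input held 1.10 CPM. Its log2 ratio of 0.91 (SE 0.38, adjusted p = 0.0931) did not pass.

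Tcf7 and Lef1, which encode TCF1 and LEF1 and are best known from T cells, were the low pair. The Tcf7 window (gene at chr11:52246527-52283383) held 0.440, 1.25 and 1.31 CPM in proliferating and 1.12, 0.861 and 0.879 CPM in differentiating WT, all below the inputs of 1.52 and 1.42 CPM. In counts, the proliferating WT libraries held 2, 5 and 10 reads. Lef1 (chr3:131110297-131224357) held 0.220, 1.50 and 1.05 CPM in proliferating WT, from 1, 6 and 8 reads, and 1.20, 0.861 and 0.761 CPM in differentiating WT, around inputs of 0.927 and 1.18. Neither differed from input by the test: the log2 ratio was −0.56 (SE 0.35, adjusted p = 0.304) for Tcf7 and −0.21 (SE 0.39, adjusted p = 0.777) for Lef1, with 95% intervals of −1.25 to 0.13 and −0.98 to 0.55. The deposited lengths of Tcf7 and Lef1 are shorter than those of their RefSeq genes (29968 against 36857 bases and 112864 against 114061), and which start their windows used is not given in the sources used here.

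Among the destruction complex genes, Apc stood highest of all 10. Apc (chr18:34220297-34322190), the tumour suppressor that binds beta-catenin in the complex, held 5.06, 6.76 and 5.12 CPM in proliferating WT, above every value of the other 9 windows. In differentiating WT it held 2.55, 1.80 and 2.69 CPM, and its inputs held 1.18 and 0.630. The log2 ratio over input was 2.25 ± 0.24 in proliferating and 1.87 ± 0.32 in differentiating cells (SD, n = 3 each), and 2.09 (SE 0.44, adjusted p = 0.000467) over both. The IgG libraries held 0.792 CPM (2 reads) in proliferating and 1.80 CPM (5 reads) in differentiating cells. WT thus stood 6.96-fold over IgG in proliferating cells (95% counting interval 1.87 to 58.4) and 1.32-fold in differentiating cells (0.547 to 4.15). The deposited length of Apc is 101207 bases against 101894 in RefSeq. The pseudogene Gm10548 overlaps the first 1476 bases of Apc by coordinate, and whether reads were counted by strand or shared is not given in the sources used here.

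Axin2, a target and negative regulator of the pathway and a standard readout of its activity (chr11:108917828-108950783), held 1.76, 3.76 and 3.94 CPM in proliferating and 2.71, 1.64 and 1.29 CPM in differentiating WT. Its inputs were 1.01 and 0.709 CPM, below all 6. Its SD in CPM, 1.21, was the largest of the 10 genes in proliferating cells, where it held 8 to 30 reads, and the fitted log2 ratio was 1.53 (SE 0.40, adjusted p = 0.00498). Its deposited length of 30435 bases is the span from the promoter start shown above to the gene's end. Axin1, its constitutive counterpart (chr17:26131217-26195811), held 2.86, 3.76 and 3.02 CPM in proliferating and 1.75, 1.25 and 1.11 CPM in differentiating WT, against inputs of 1.26 and 0.946. Its log2 ratio of 0.95 (SE 0.37, adjusted p = 0.0693) did not pass. Without the differentiating input, which leaves 1 input in the fit, the log2 ratio was 1.32. The deposited length of Axin1 is 57126 bases against 64595 in RefSeq, so the start of its window is not known either.

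The co-receptors LRP5 and LRP6 bind Wnt proteins beside Frizzled and recruit AXIN to the membrane. Lrp6 (chr6:134446476-134566913) held 2.86, 4.01 and 3.94 CPM in proliferating and 1.75, 1.56 and 2.11 CPM in differentiating WT, against inputs of 0.758 and 0.788. Its fitted log2 ratio was 1.73 (SE 0.41, adjusted p = 0.00201), the second largest. Lrp5 (chr19:3584825-3686585) held 3.52, 4.01 and 3.55 CPM in proliferating WT, a narrow range, and 2.87, 1.33 and 1.46 CPM in differentiating WT, where the first library stood apart. Its inputs were 1.18 and 1.10 CPM and its fitted log2 ratio was 1.19 (SE 0.39, adjusted p = 0.0268). Without that first differentiating library the adjusted p of Lrp5 was 0.0927, and without the third proliferating one it was 0.0586.

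All windows have the same length, so these levels can be ordered. By the mean of the proliferating WT libraries the order was Apc (5.65 ± 0.96 CPM, SD, n = 3), Lrp5 (3.69 ± 0.27), Tcf7l2 (3.67 ± 0.98), Lrp6 (3.60 ± 0.64), Axin1 (3.21 ± 0.48), Axin2 (3.15 ± 1.21), Tcf7l1 (2.95 ± 0.17), Ctnnb1 (2.79 ± 0.90), Tcf7 (1.00 ± 0.49) and Lef1 (0.925 ± 0.651). Apc lay above and Tcf7 and Lef1 lay below all other values. Among the 7 in between, each neighbour's range overlapped the next. In differentiating WT Apc was again first (2.35 ± 0.48 CPM) and Lef1 last (0.939 ± 0.227), but the ranges of Apc, Lrp5, Axin2, Tcf7l2 and Lrp6 overlapped, as did those of Ctnnb1, Tcf7 and Lef1.

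**Figure D2:**
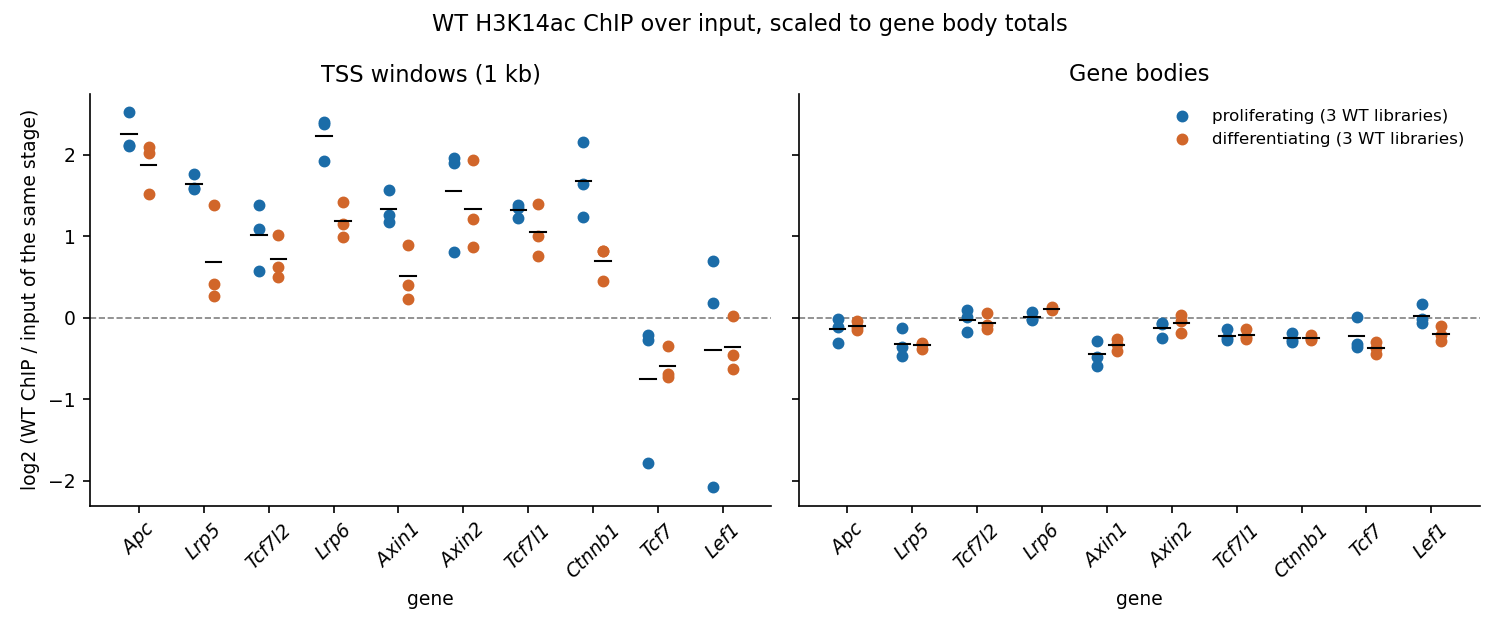
Log2 ratio of each WT library to the input of its stage for the TSS windows (left) and gene bodies (right) of the 10 genes, with the mean of 3 libraries as a bar. Means in the windows ran from −0.76 to 2.25, those in the gene bodies from −0.45 to 0.11.

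Over gene bodies no call above input was made. None of the 10 gene bodies was higher by edgeR's quasi-likelihood test, and 5 were lower: Axin1 (log2 ratio −0.38 (SE 0.08, adjusted p = 0.00536)), Lrp5 (−0.33), Tcf7 (−0.30), Ctnnb1 (−0.25) and Tcf7l1 (−0.21). Over all gene bodies 21.3% were lower. The other 5 had log2 ratios of −0.12 (Apc), −0.09 (Axin2), −0.09 (Lef1), −0.04 (Tcf7l2) and 0.06 (Lrp6). The Lrp6 body lay above input in 4 of 6 WT libraries, all 3 differentiating ones among them (log2 0.09 to 0.13), and stood at 0.17 with TMM (adjusted p = 0.0897). DESeq2 called 4 of the 5 lower and not Ctnnb1 (adjusted p = 0.0597). With TMM scaling Axin1 alone was lower (log2 −0.27, adjusted p = 0.0336), against 11.0% of all gene bodies, and with either input left out none was. Leaving out the second differentiating WT library left 3 lower, with an adjusted p of 0.0637 for Ctnnb1 and 0.0709 for Tcf7. Tcf7 was also lost without the second or the third proliferating WT library (0.0581 and 0.0861). Calls over all 24848 gene bodies split into 2094 higher and 5304 lower with gene body totals, and 2908 and 2743 with TMM. Among the bodies of the 95 other pathway genes taken up below, 8 were higher and 23 lower with gene body totals.

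Per kb, the bodies of the 10 genes lay close together. Their deposited lengths run from 27108 bases (Ctnnb1) to 191846 bases (Tcf7l2), and each held between 0.758 and 1.26 CPM per kb in every WT library. The density in the window relative to the whole body needs no scaling between libraries. It was 6.16 ± 0.631 (SD, n = 3) for Apc in proliferating WT, against 1.17 in input. For Axin1 it was 3.90 ± 0.971, for Lrp5 3.82 ± 0.579 and for Lrp6 3.55 ± 0.562. The windows counted for Tcf7 and Lef1 were on average no denser than the bodies, at 0.978 ± 0.547 and 0.899 ± 0.648. Their proliferating inputs stood at 1.21 and 0.887. These 2 windows held at most 10 reads per proliferating WT library, and which starts they used is not known. Summed over the 10 genes, the density ratio was 3.00 ± 0.68 in proliferating and 1.60 ± 0.28 in differentiating WT (SD, n = 3 each), and 1.03 and 0.860 in the inputs. Over all genes it was 1.80 ± 0.07 and 1.30 ± 0.08, and 1.27 and 1.22 in the inputs.

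Against IgG, the windows were compared with fewer reads: the 2 IgG libraries held 48 reads in the 10 windows together, and the 6 WT libraries, the same as in the comparison with input, held 1157. Summed and with both stages pooled, WT stood 2.18-fold over IgG (95% interval of the ratio of counts 1.63 to 2.98, counting error only). By stage it was 3.10-fold (2.08 to 4.84) in proliferating and 1.88-fold (1.24 to 2.98) in differentiating cells. The ratios of counts for single genes in this paragraph are pooled over the stages too. Of 8 windows tested 2 were higher, against 5.13% of all windows, and none was lower. Tcf7l2 held 0 and 1 reads in IgG and 139 in WT, a ratio of 12.6 (95% counting interval 2.22 to 500.3). Its fitted log2 ratio was 3.75 (SE 0.92, adjusted p = 0.00807). Lrp5 held 2 and 1 reads in IgG and 137 in WT, a ratio of 4.13 (1.38 to 20.3), with a fitted log2 ratio of 2.23 (SE 0.71, adjusted p = 0.0402). Axin1 was nearest to IgG, with 9 reads there and a log2 ratio of 0.38. The median log2 ratio was 1.57 for the 8 and 0.67 for all windows; with TMM scaling, which moved the median of all windows to 0.05, none of the 8 passed and the calls over all windows went from 675 higher and 27 lower to 14 and 39. DESeq2 gave an adjusted p for 1 of the 8, Apc, which did not pass. Without the proliferating IgG library none passed (Tcf7l2 0.486, Lrp5 0.466). The call of Lrp5 was also lost without the second or the third proliferating WT library or the first differentiating one (adjusted p = 0.0615, 0.0503 and 0.0515), without the differentiating IgG library (0.126), and without a filter on low counts (0.0676). Without the differentiating IgG library Apc passed (0.0442), and without the second differentiating WT library Lrp6 did (0.0498). Tcf7 and Lef1 had too few reads to be tested, with 7 and 4 in IgG. Without the filter their log2 ratios were −0.42 (SE 0.63) and 0.31 (SE 0.77). The filter takes WT and the shallower IgG libraries together, so a window passed it mainly through its WT reads. The medians and counts given for tested windows, of the 8 and of all, carry this selection. In gene bodies none of the 10 differed from IgG by edgeR's quasi-likelihood test (1.28% of all gene bodies did), 2 had an unadjusted p under 0.05, and DESeq2 called none.

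In Hbo1 null cells the windows could not be measured gene by gene. The proliferating null library held 0 reads in the 10 windows, where its depth would give 0.745 at the input level and 1.97 at the WT level. A count of 0 allows up to 3 reads, a one-sided limit, or 1.52 times the WT level; the upper end of the two-sided 95% exact Poisson interval is 3.69 reads, or 1.87 times. The differentiating null library held 2 reads, 1 each in Tcf7 and Axin2, or 0.400 times the WT level (95% exact Poisson interval 0.0485 to 1.45) and 0.671 times input (0.0812 to 2.42). A loss of the WT signal was thus not detectable at this depth in either stage. The gene bodies held 54 and 266 reads, 0.879 (0.660 to 1.15) and 0.908 (0.802 to 1.02) times the WT level.

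Between the stages, 9 of the 10 windows had a lower mean in differentiating WT, and for 7 the 3 libraries of one stage did not overlap those of the other in CPM. Of the 19477 windows with a mean of at least 10 WT reads, 78.4% had a lower mean in differentiating WT and 33.7% were lower without overlap. Of the 10 genes 8 have that many reads, and the counts for these 8 are 8 and 7. The ratio of the stage means (differentiating to proliferating) was 0.369 in Ctnnb1, 0.416 in Apc and 0.427 in Axin1, 0.502 to 0.596 in Lrp6, Lrp5, Tcf7l1 and Axin2, 0.950 in Tcf7 and 1.02 in Lef1. For Tcf7l2 the means were 3.67 and 1.83 CPM. How many passed the test depended on the scaling, since it compares each window with no change on that scale. With TMM on the windows, none of 8 tested passed by edgeR's quasi-likelihood test, against 4.57% of all windows that were lower. Among the 8, 4 had an unadjusted p under 0.05, and DESeq2 called none and gave no adjusted p for Ctnnb1. With gene body totals, all 8 passed as lower, against 25.7% of all windows, and the calls over all windows went from 395 higher and 890 lower to 64 and 4996. The median log2 difference of the 8 genes was −0.53 with TMM and −1.02 with gene body totals, beside 0.02 and −0.47 over all windows, a gap of −0.55 and −0.54. Fewer cells carrying the mark and less of it per cell cannot be told apart in these bulk libraries.

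Gene by gene, the log2 difference (differentiating over proliferating, TMM) was lowest for Ctnnb1, at −0.89 (SE 0.32, adjusted p = 0.0708). Apc followed with −0.73 (SE 0.27, adjusted p = 0.0737) and Axin1 with −0.73 (SE 0.30, adjusted p = 0.118). The factor gene Tcf7l2 stood at −0.56 (adjusted p = 0.207), the co-receptor genes Lrp5 and Lrp6 both at −0.49 (adjusted p = 0.291 each), Axin2 at −0.34 (0.506) and Tcf7l1 at −0.32 (0.548). Leaving out the first proliferating library moved Ctnnb1 to −1.08 (adjusted p = 0.0424). With gene body totals Ctnnb1 was at −1.39 (adjusted p = 0.000696), Apc at −1.23 (0.00073), and Axin2 and Tcf7l1, both at −0.82, were closest to the threshold (0.0405 and 0.0454). Tcf7 and Lef1 had a mean of fewer than 10 reads and were not tested. In the TMM fit without a filter on low counts their estimates lay above 0, at 0.25 (SE 0.44) and 0.39 (SE 0.46). The inputs differed between the stages too: the Apc input went from 1.18 to 0.630 CPM between the stages, and that of Tcf7l2 from 1.77 to 1.10, while those of Lrp5 and Lrp6 moved from 1.18 to 1.10 and from 0.758 to 0.788. The stage also goes with depth and with the share of reads in all TSS windows, and their part was not tested.

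**Figure D3:**
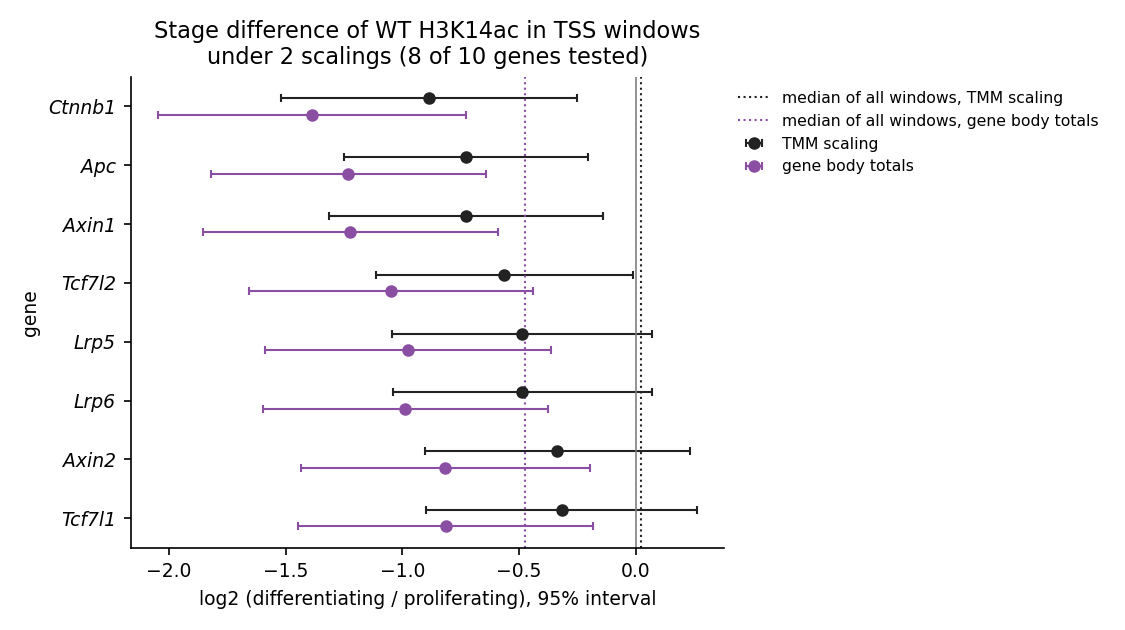
Log2 difference of WT TSS window counts between differentiating and proliferating cells for the 8 genes tested, with 95% intervals, under TMM (black) and gene body totals (purple). Dotted lines mark the median of all windows, 0.02 and −0.47. All 8 estimates lie below 0 under both.

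With input taken into account no window passed. The stage difference of WT over input, tested as an interaction in which the single input of a stage is assumed to vary like the WT libraries, passed for none of the 10 windows by edgeR's quasi-likelihood test (0.0278% of all windows were lower), none had an unadjusted p under 0.05, and DESeq2 called none. The estimates were below 0 for all 10, with a median of −0.36 against −0.37 for all windows. With TMM the median of all windows was 0.03 and 6 of the 10 estimates were above 0. Their intervals were wide: the lowest, Lrp6, was at −1.04 (95% interval −2.59 to 0.51), and Ctnnb1 was at −0.98 (−2.55 to 0.60). In gene bodies no stage difference passed for the 10 genes by edgeR's quasi-likelihood test (0.163% of all gene bodies did; DESeq2 called none of the 10). Tcf7 was lowest there, at −0.32 (SE 0.10, adjusted p = 0.281), with 29.4 to 37.9 CPM in proliferating and 24.1 to 26.7 CPM in differentiating WT, ranges that did not overlap; it was the one gene with an unadjusted p under 0.05. The Lrp6 body did not overlap either, in the other direction, with 118.4 to 127.0 CPM in proliferating and 127.7 to 131.2 CPM in differentiating WT. Of all gene bodies tested 17.3% did not overlap. The interaction passed for no gene body at all (0.0% of 24848; 528 at an unadjusted p under 0.05, DESeq2 0).

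The other genes of the pathway were taken from a list of 95, by role. Against input, 84 of their windows could be tested. Of these 17 were higher and 1 was lower, against 11.6% of all windows higher. Their median log2 ratio was 0.43, beside 0.25 for all windows. With TMM 12 were higher and 4 lower, against 6.41% of all windows higher, and DESeq2 called 13 higher. The cytoplasmic transducers had the highest median of the roles (0.81): all 16 had a positive ratio and 5 were higher. They were Csnk1a1 (1.55, adjusted p = 0.00541), a kinase that primes beta-catenin, Gsk3b (1.47, adjusted p = 0.00677), the kinase that marks it for degradation, Fbxw11 (1.36), Tnks2 (1.11) and Dvl3 (1.10). Of 14 receptors 3 were higher, the Frizzled genes Fzd1 (1.80, adjusted p = 0.00137), Fzd3 (1.38) and Fzd2 (1.22); Fzd1 had the highest ratio of the 84. Of 12 nuclear cofactors 3 were higher, Tle4 (1.75), Tle1 (1.55) and Tle3 (1.45), co-repressors that bind TCF/LEF factors, and Chd8, a chromatin remodeller, was lower (−1.17). Of 7 other targets 3 were higher, Ccnd1 (1.56), a cyclin, Emx2 (1.54), a factor of the dorsal telencephalon, and Cd44 (1.09), an adhesion receptor. Of 15 ligands Wnt7b alone passed (1.43), of 6 R-spondin group genes Lgr4 (1.40) and Znrf3 (1.12) did, and none of 12 extracellular inhibitors or 2 secretion genes did. Fzd1, Fbxw11, Tnks2, Dvl3, Chd8, Tle3, Lgr4 and Cd44 are named here to complete small counts and were chosen after their values were seen.

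**Figure D4:**
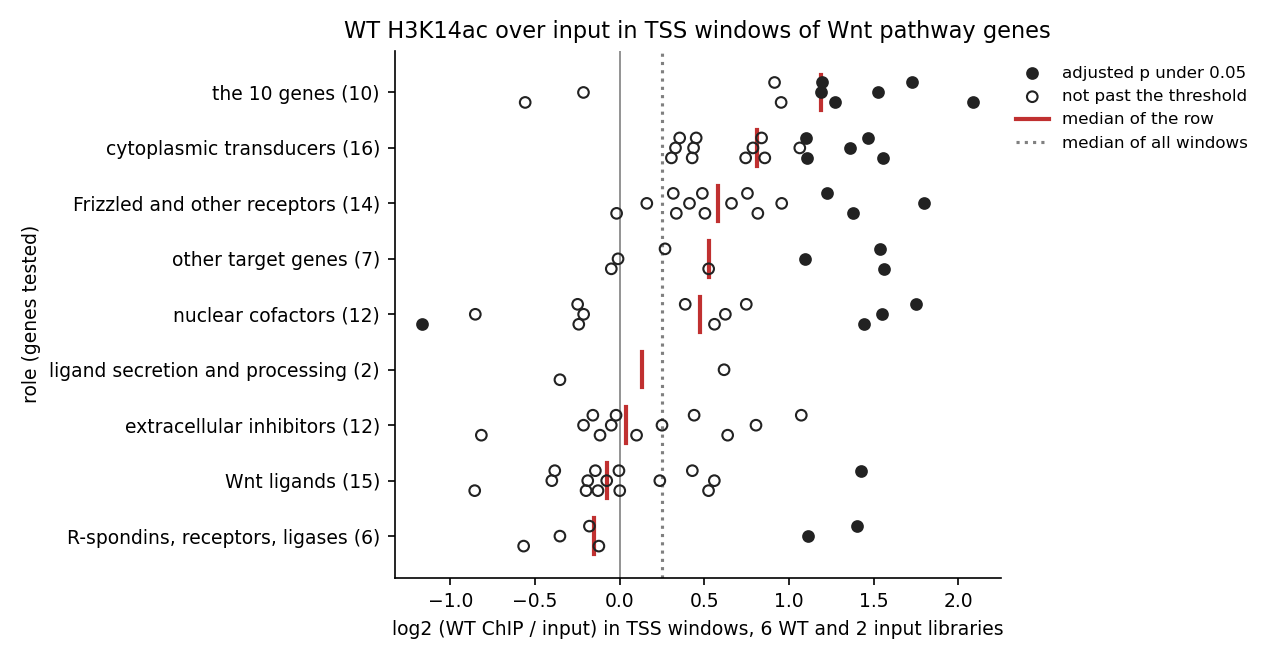
Fitted log2 ratio of WT over input in the TSS windows of the 10 genes and of 84 other pathway genes by role, 1 point per gene, filled where the adjusted p was below 0.05. The row medians run from 1.19 for the 10 genes and 0.81 for cytoplasmic transducers to −0.08 for ligands and −0.15 for the R-spondin group, beside 0.25 for all windows.

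In the stage comparison 71 of the 95 could be tested with TMM, and 12 were lower and 1 higher in differentiating WT, against 4.57% of all windows lower. With gene body totals 36 were lower, against 25.7% of all windows, and none was higher; DESeq2 called 7, all lower. The 12 were the tankyrases Tnks2 (−1.40, adjusted p = 0.000447) and Tnks (−1.07), which mark AXIN for degradation, the ligand Wnt7b (−1.25), the cyclin Ccnd1 (−1.22), the receptors Ptk7 (−1.13), Fzd1 (−0.90) and Fzd3 (−0.81), the co-repressors Ctbp1 (−1.03), Tle4 (−0.99) and Tle3 (−0.95), Emx2 (−0.96) and Lgr4 (−0.92); Fzd1 and Ctbp1 were named after their values were seen. The ligand Wnt9b was higher (1.57, adjusted p = 0.0151). The median of the 71 was −0.39, against −0.53 for the 8 of the 10 genes tested and 0.02 for all windows. In gene bodies Ccnd1 alone of the 95 passed (−0.87, adjusted p = 0.0402), against 0.163% of all gene bodies. In DESeq2, 3 gene bodies passed. Against IgG 5 of 49 windows were higher, those of Tle4 (2.14), Csnk1d (2.03), Tle3 (2.03), Cd44 and Fzd9, and none with TMM. Over all windows 5.13% were higher than IgG. Csnk1d and Tle3 were named after their values were seen. Cd44 held 0 reads in both IgG libraries and 88 in WT, and Fzd9 2 and 107.

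By the pattern over the 10 WT, input and IgG libraries, Apc, the window with the most WT reads (190), was nearest to Mcl1, Rhob and Nfib among 270 windows with a mean of at least 30 WT reads. Their Euclidean distances to Apc, on log2 CPM centred per gene, were 0.615, 0.732 and 0.825, against a median of 2.11. Mcl1 encodes a survival protein of the BCL2 family, Rhob a small GTPase and Nfib a nuclear factor I protein of developing brain.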

How the data were processed

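The ChIP-seq libraries came from a TruSeq DNA kit and a NextSeq sequencer (both Illumina), per the labels' protocols. Per the submitters' processing notes, bcl2fastq, featureCounts and the mm10 build were used. The aligner, the versions and the treatment of reads that align to several places are not given in the sources used here. The authors deposited raw counts per gene, in TSS windows of 1000 bases and over gene bodies, for 27095 Entrez gene IDs in 12 libraries. The 24 deposited tables per sample equalled the columns of the 2 joint tables. Symbols were matched for 25204 IDs in RefSeq (GRCm38.p6), and 1891 had none. The promoters came from the same release.

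Groups followed the labels. The tests on counts were edgeR's (version 4.0.16, under R 4.3.3), namely two-sided quasi-likelihood tests with p-values adjusted by Benjamini-Hochberg over all features with a mean count of at least 10, at a threshold of 0.05. The stage comparison used the 6 WT libraries and TMM. The comparisons with input and IgG used 8 libraries each and a term for the stage. Their library size was the gene body total, because nothing says that most windows are equal in a ChIP and a background library. The interaction of stage and library kind used the same 8 as for input. A mean of 10 reads per window leaves wide intervals, which are given beside the values. Ratios of counts have 95% exact binomial or Poisson intervals, for counting error only. The test script was tested on simulated data.

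All 10 members are named whatever their values. Of the other pathway genes, up to 2 per role and comparison are named that passed without overlap between groups and with the smallest p. Gene bodies against input are an exception, where only the counts of these genes are given. The 3 windows nearest to the member with the most WT reads are named too. Members and lists were chosen with earlier results of these data known. Alternatives were DESeq2 1.42.0, other scalings, no filter on low counts, a replicate block and leaving out each library.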

Additional observations from a re-analysis of the deposited data

How the results depend on the processing

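For the 10 genes, 777 values were recomputed under alternatives: 725 kept their direction and their side of the threshold or had another sign with neither past it (35 of them), 40 lost the call, 12 gained it and 0 were reversed while called; 11 further DESeq2 values came with no adjusted p and were left out. The counts past the threshold moved as follows. In the stage comparison of TSS windows, 1285 windows and 0 of the genes became 588 windows with DESeq2, 5060 windows and 8 genes with gene body totals, and 787 windows and 0 genes with the replicate number as a block. Leaving out 1 library gave 331 to 1256 windows and 0 to 1 genes. In gene bodies, 40 and 0 became 182 and 0 with DESeq2, and 3 to 66 without 1 library. Against input, 6 genes with windows past the threshold became 3 with TMM and 0 to 7 without 1 library (2697 windows in all became 25 to 3990), and 5 gene bodies became 1 with TMM and 0 to 5 without 1 library (7398 in all became 0 to 10231). Against IgG, 702 windows and 2 genes became 371 and 0 with DESeq2, 53 and 0 with TMM, and 1 gene without a filter on low counts; without 1 library they were 5 to 1035 windows and 0 to 3 genes. Its gene bodies, 303 in all, became 491 with DESeq2 and 74 to 701 without 1 library. For the stage difference of WT over input, 6 windows became 0 with DESeq2, 0 with TMM, 0 without a filter and 0 to 65 without 1 library. The cause was not tested, beyond the fewer libraries in the fits that leave 1 out, in which a lone control is assumed to vary like the other libraries. The summed level in the differentiating null library was 0.671 times input by gene body totals and 0.740 by TSS totals, and the share of body reads in the windows of the 10 genes was 1.71% in differentiating and 3.21% in proliferating WT, lower without any 1 library too.

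The replicate numbers were not shown to pair the libraries: same-numbered libraries of the stages had correlated deviations of −0.011, −0.026 and 0.000 in TSS windows, and −0.24, 0.18 and −0.32 in gene bodies, and not every library correlated best with its own number. With the block, gene body calls went from 40 to 38 and no call of the 10 genes changed. The windows hold few reads: WT libraries held 1 to 46 in each, IgG 0 to 6.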
